A study of Drosophila melanogaster with 12 samples.

Results

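The sites described here are stretches of the large autosomal arms (2L, 2R, 3L and 3R) at which the Drosophila protein Phaser (CG7372, listed by RefSeq as Phs) gave a ChIP-seq peak in 1 of 2 replicate cultures of the same clone. A peak was taken if it overlapped no peak of the other Phaser replicate by even 1 bp and no peak of any of 4 lists for a second factor, Saft (CG11247). They numbered 1208 of the 14668 peaks in all 6 lists, with 1097 from Phaser replicate 1 and 111 from Phaser replicate 2. They are called single-replicate peaks below, and Phaser peaks that overlapped a peak of the other replicate are called reproduced peaks. The series holds 12 samples of S2 cells, a line first grown from Drosophila melanogaster embryos, of which 6 are ChIP libraries with a peak list each and 6 are inputs. Phaser was mapped in clone 8D (genotype OsTir1, Phaser_FLAG-AID) with 2 replicates, and Saft in clones 9C and 4H (genotype OsTir1, Saft_FLAG-AID) with 2 replicates each. Every line carried OsTir1, the plant receptor that marks AID-tagged proteins for destruction when auxin is added, and a FLAG-AID tag on the endogenous gene. No protein was depleted, and the antibody was FLAG M2 throughout. Phaser rests on 1 clone, so all values below come from that clone.

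Silencers are DNA elements that lower transcription, the opposite of enhancers, and they work through proteins that bind them. The series title places Phaser and Saft in a screen for such elements. ChIP-seq fixes proteins to DNA, pulls down one protein with its fragments and sequences them, and a peak is a stretch where reads pile up above the background. A peak caller draws a limit through a continuous range of signal, so a list holds sites that range from far above that limit to just past it.

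The Phaser lists held 4635 and 3501 peaks on the 4 arms in replicates 1 and 2. The lowest −log10 q (the authors' adjusted significance at the summit) was 1.32 and 1.30. ChIP reads and background under each summit were recovered from the authors' fold enrichment and −log10 p, as whole reads in 100% of peaks of both Phaser lists. The same recovery gave the average ChIP coverage of replicate 2 as 1.16 times that of replicate 1, provided that both runs used the same genome size. The classes are defined by the 2 libraries themselves, so no test over samples is possible. Intervals below are 95% intervals over peaks and cover counting error only.

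Single-replicate peaks were common in one list and rare in the other. In replicate 1, 1376 of 4635 peaks (29.7%) overlapped no replicate 2 peak, and 1097 (23.7%) also overlapped no Saft peak. In replicate 2, 116 of 3501 peaks (3.31%) overlapped no replicate 1 peak, and 111 (3.17%) also lay outside Saft. With each list cut to an equal length, its best 3501 peaks by −log10 q, the numbers were 381 and 314. The shares were alike on the 4 arms, at 24.9% on 2L, 24.4% on 2R, 24.1% on 3L and 22.1% on 3R in replicate 1. In replicate 2 they were 2.33% on 2L, 3.10% on 2R, 3.42% on 3L and 3.54% on 3R, and the 4 Wilson intervals overlapped in each list.

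The peaks came from the weak end of each list, which follows from how they were chosen. Of the replicate 1 set, 97.4% lay in the weaker 50% of that list by −log10 q, against 28.5% of reproduced peaks. Their median −log10 q was 3.78 (interval 3.67 to 3.92), against 14.4 (13.8 to 15.2) for reproduced peaks. The medians of replicate 2 were 2.94 (2.81 to 3.16) and 10.1 (9.67 to 10.5). Median fold enrichment, the authors' ratio of ChIP to background, was 3.18 against 5.55 in replicate 1 and 2.90 against 4.30 in replicate 2. The share that was seen in 1 replicate went down over the deciles of −log10 q. In replicate 1 it was 83.1% in the weakest decile, 51.1% in the third, 11.6% in the fifth and 0.964% in the seventh, and the 3 strongest deciles held none. Replicate 2 gave 21.6% in the weakest decile, 3.95% in the third and 0.608% in the fifth. Weak peaks of the lists thus differed in how often they were met again. Between −log10 q of 3 and 5, 67.1% (63.6 to 70.5) of replicate 1 peaks outside Saft were single-replicate, against 7.36% (5.43 to 9.90) of those of replicate 2.

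**Figure D1:**
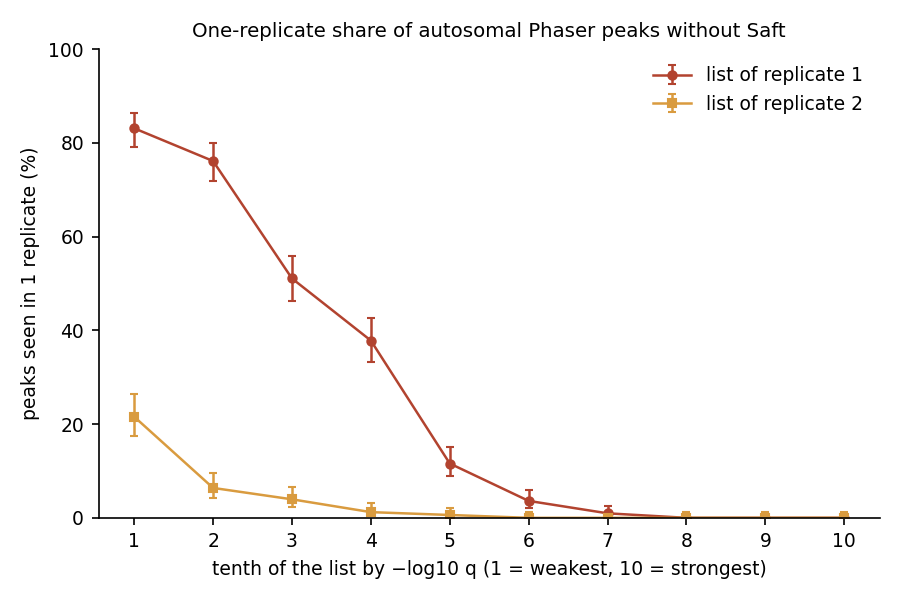
Share of autosomal Phaser peaks without Saft that were seen in 1 replicate (y axis, %), by decile of each list from weakest to strongest −log10 q (x axis). Points are shares, bars are 95% Wilson intervals over peaks, and the weakest decile stands at 83.1% in replicate 1 and 21.6% in replicate 2.

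Where a site was reproduced, replicate 2 gave the lower values. Over the 3051 reproduced replicate 1 peaks outside Saft, fold enrichment was lower at the matching replicate 2 peak for 80.9%, −log10 q for 79.5%, and the width for 81.4%. The median ratio of replicate 2 to replicate 1 was 0.809 for fold enrichment, 0.877 for ChIP reads at the summit and 1.26 for background. Background is in reads scaled by the peak caller, unlike the ChIP reads. Its floor, the lowest value in a list, had a ratio of 1.31 between the lists, so 1.26 does not show more local background in replicate 2. Whether these differences have a part in the unequal numbers was not tested.

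The strongest single-replicate peaks stood well inside the list, though none reached its top. The highest −log10 q in replicate 1 was that of a 534 bp peak on 3R at 26456576 to 26457109 (dm3), with 14.7 and a fold enrichment of 6.62 from 102 ChIP reads over a background of 3.6. It ranked 1553 of 4635, and the nearest replicate 2 peak lay 15114 bp away. The next, on 2L at 12226777 to 12227320, had −log10 q of 14.6 and 5.07-fold enrichment, and lay 387 bp from a replicate 2 peak. A peak on 3L at 3753366 to 3753775 had −log10 q of 13.6 with 5.26-fold enrichment, and one on 2R at 16859539 to 16859834 had 13.5 with 5.65-fold. The 2R peak lay 38262 bp from any replicate 2 peak, so these strong peaks included both near neighbours and distant sites. The other 4 of the 8 strongest were on 3L at 18961646 to 18962064 and 9905459 to 9905684, on 3R at 5926120 to 5926499 and on 2R at 15561075 to 15561359. Their −log10 q ran from 11.5 to 13.2 and their ChIP reads from 97 to 149. The read count was highest at the 3R site, where the background of 9.83 was also the highest of the 8 and enrichment the lowest at 4.07-fold.

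In replicate 2 the strongest lay on 2L at 9032454 to 9032728, with −log10 q of 9.21, 4.03-fold enrichment and 99 reads over a background of 7.22. It ranked 1758 of 3501, and the nearest replicate 1 peak was 12628 bp away. The others of the 5 strongest were on 2R at 15103401 to 15103680 (3.97-fold), 18561945 to 18562218 (3.68-fold) and 14715788 to 14716010 (3.77-fold), and on 3L at 15080310 to 15080518 (3.45-fold). Their −log10 q lay between 5.88 and 7.91, in the weaker 50% of the list. No single-replicate peak of replicate 2 reached a −log10 q of 10, against 19 in replicate 1.

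Single-replicate peaks were narrow. Their median width was 216 bp (interval 210 to 220) in replicate 1, against 486 bp (474 to 496) for reproduced peaks of that list. Replicate 2 gave 175 bp (168 to 191), against 360 bp (351 to 368). The smallest width in either list was 150 bp, which equals the read extension assumed in the recovery of reads, so narrow peaks are bounded from below. In replicate 1, 40.7% were under 200 bp, against 3.77% of reproduced peaks, and 22 of 1097 reached 500 bp, against 1458 of 3051. In replicate 2, 64.0% were under 200 bp, against 12.1%, and none of 111 reached 500 bp, which allows up to 3.35% by the Wilson interval. The pattern held on each arm, with medians of 208 to 222 bp against 466.5 to 512 bp in replicate 1 and of 172 to 193 bp against 346 to 382.5 bp in replicate 2.

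**Figure D2:**
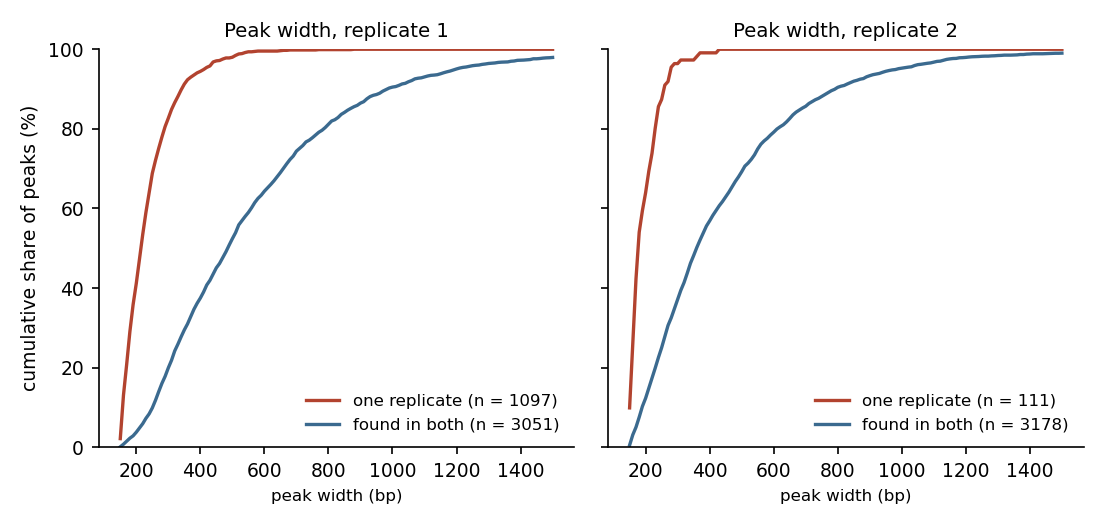
Cumulative share of peaks (y axis, %) by peak width in bp (x axis), for single-replicate peaks (red) and reproduced peaks (blue) outside Saft, in replicate 1 and replicate 2. The single-replicate curves rise earlier, with medians of 216 and 175 bp against 486 and 359.5 bp, and the x axis ends at 1500 bp.

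The widest were exceptions rather than strong sites. On 3L at 17562953 to 17563832 the replicate 1 peak was 880 bp wide, with −log10 q of 4.45 from 90 reads. It lay 430 bp from a reproduced peak and 665 bp from any replicate 2 peak. The next were 769 bp on 2L at 14024053 to 14024821 (2.99-fold) and 679 bp on 3L at 17596097 to 17596775 (3.12-fold). Those of replicate 2 were 429 bp on 2R at 16603479 to 16603907, 364 bp on 2R at 10633332 to 10633695 and 359 bp on 3L at 10735296 to 10735654, all within 500 bp of a reproduced peak. Summits sat near the middle, at a median of 0.505 and 0.477 of the width in replicates 1 and 2, against 0.496 and 0.497 for reproduced peaks.

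At like significance, single-replicate peaks held fewer reads and sat on a lower background. Both values were solved from fold enrichment and −log10 p. At a fixed significance a lower background goes with fewer reads and higher fold enrichment, so these are not separate differences. The weakest band, −log10 q under 3, is the closest match, since the medians of −log10 q in it were 2.49 against 2.41 in replicate 1 and 2.41 against 2.47 in replicate 2. There the median count at the summit was 58 reads (56 to 59) against 64 (61 to 71) in replicate 1. Replicate 2 gave 54 (51 to 57) against 66 (64 to 68). Median background was 5.45 scaled reads (5.03 to 6) against 7 (6 to 8) in replicate 1, and 6 (5.33 to 6.57) against 8 (8 to 8.96) in replicate 2. Fold enrichment was accordingly higher at the single-replicate peaks, with medians of 2.70 against 2.55 in replicate 1 and 2.66 against 2.45 in replicate 2. Median width was 190 bp against 207.5 bp in replicate 1 and 171.5 bp against 192.5 bp in replicate 2. The intervals overlapped in both lists. In the band from 3 to 5, single-replicate peaks had 63 reads against 73 in replicate 1 and 62 against 68 in replicate 2. They were also narrower there, at 205.5 bp (197 to 218) against 258 bp (244 to 266) in replicate 1 and 175 bp (157 to 195) against 215 bp (208 to 222) in replicate 2. Background from 3 to 5 was 4.965 (4.8 to 5) against 6 (6 to 6) in replicate 1. In replicate 2 it was 6 (5.325 to 6.645) against 6.705 (6.39 to 6.9), and these intervals overlap. Those of replicate 2 from 5 to 10, with 12 single-replicate peaks, also overlap. From 3 to 5 the single-replicate peaks lay lower within the band, with a median −log10 q of 3.87 against 4.35 in replicate 1 and 3.73 against 4.02 in replicate 2, and the part of this in the gaps was not tested. These measures belong to the same contrast as the choice of peaks and are given without a test.

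**Figure D3:**
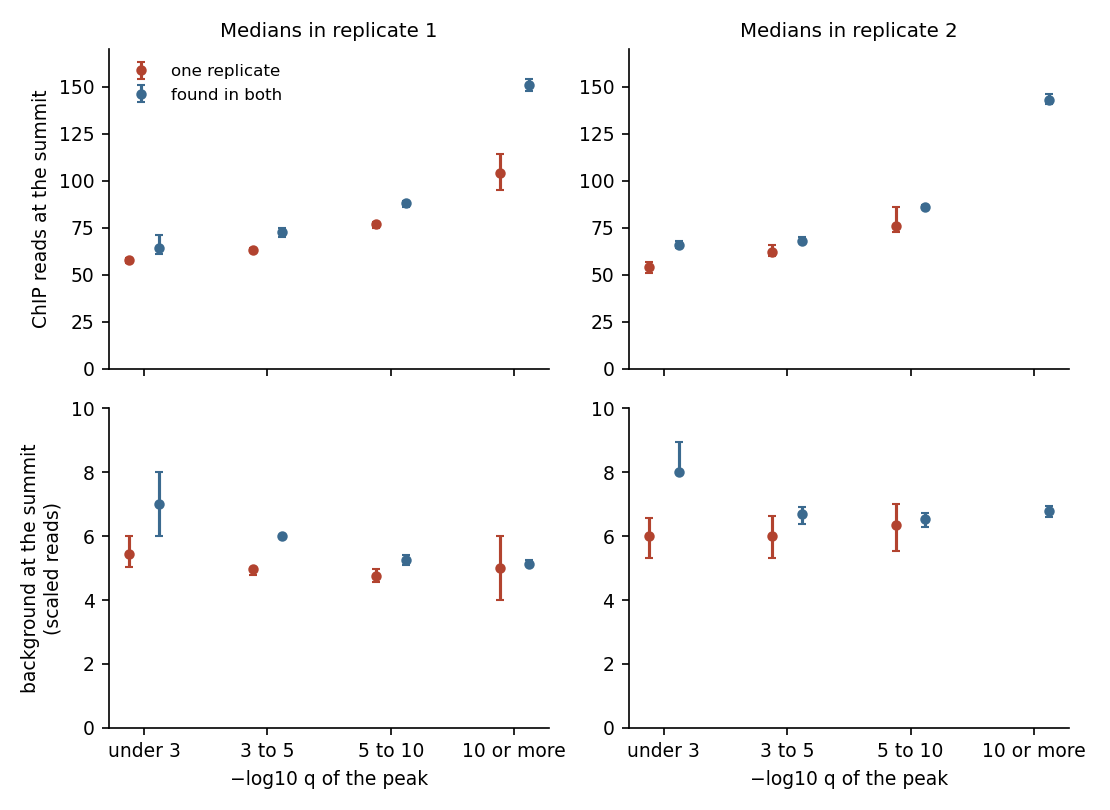
Median ChIP reads at the summit (upper panels) and median background at the summit in reads scaled by the peak caller (lower panels), by band of −log10 q (x axis), for single-replicate peaks (red, left in each pair) and reproduced peaks (blue). Bars are 95% intervals of the median over peaks, and groups under 10 peaks are not drawn. In the band under 3, reads stand at 58 against 64 in replicate 1 and at 54 against 66 in replicate 2.

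Over all strengths, the median was 65 reads (64 to 67) against 122 (120 to 125) in replicate 1 and 58 (57 to 62) against 103 (100 to 105) in replicate 2. Single-replicate summits held 41 to 272 reads in replicate 1 and 38 to 126 in replicate 2. Only 52 of the 1097 and 3 of the 111 held 100 or more, against 2098 of 3051 and 1666 of 3178 reproduced peaks.

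Single-replicate peaks lay closer to reproduced peaks than reproduced peaks lay to each other, and weak peaks of both classes lay closer than strong ones. In replicate 1 the median gap to the nearest reproduced peak, edge to edge, was 2820 bp (2501 to 3386), against 4968 bp (4600 to 5293) between reproduced peaks. Replicate 2 gave 1505 bp (861 to 3682) against 4328 bp (3996 to 4619). Within 1 kb of a reproduced peak lay 353 of 1097 (32.2%, 29.5 to 35.0) in replicate 1, against 621 of 3051 (20.4%, 19.0 to 21.8), where all autosomal peaks of the list gave 22.3%. In replicate 2 these were 47 of 111 (42.3%, 33.6 to 51.6) against 769 of 3178 (24.2%, 22.7 to 25.7), where all peaks gave 24.6%. Within 5 kb the shares were 59.8% against 50.1% in replicate 1 and 67.6% against 53.3% in replicate 2, where all peaks gave 50.7% and 53%.

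**Figure D4:**
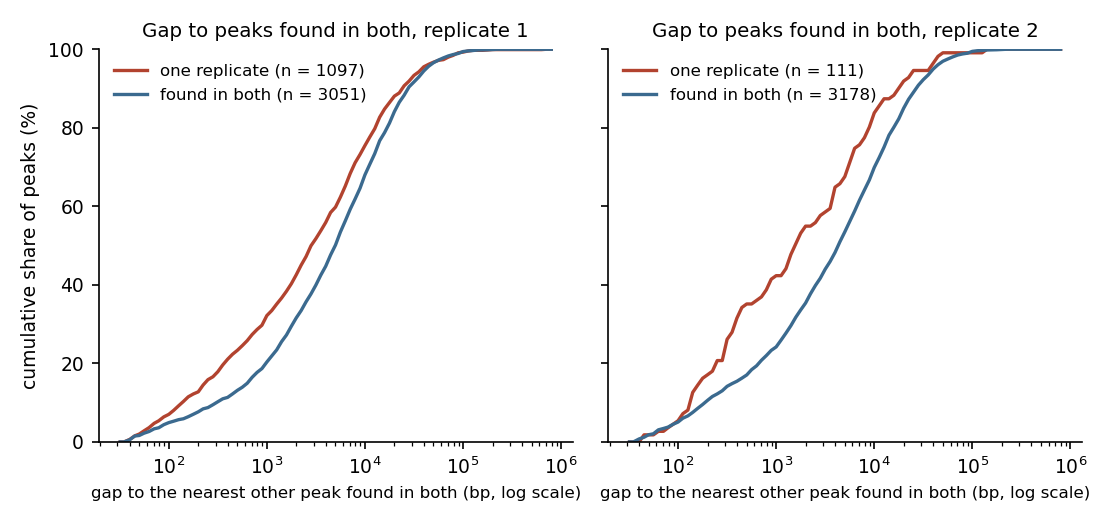
Cumulative share of peaks (y axis, %) by the gap to the nearest other reproduced peak in bp (x axis, log scale), for single-replicate peaks (red) and reproduced peaks (blue) outside Saft. The red curve lies to the left, with medians of 2820 against 4968 bp in replicate 1 and 1505 against 4328 bp in replicate 2.

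For peaks with −log10 q under 3 and from 3 to 5, the differences in share were smaller than over all peaks, and the intervals of the classes overlapped. With −log10 q under 3, 48.4% (43.0 to 53.9) of single-replicate and 44.8% (32.7 to 57.5) of reproduced peaks of replicate 1 lay within 1 kb of another reproduced peak. From 3 to 5 these were 30.1% and 29.7%, and from 5 to 10 they were 18.3% and 19.7%. In replicate 2 the band under 3 gave 55.0% (42.5 to 66.9) and 46.8% (40.3 to 53.4), and the band from 3 to 5 gave 33.3% and 31.2%. Within 5 kb the single-replicate shares were the higher in both of these bands. Under 3 they were 70.4% (65.2 to 75.2) against 62.1% (49.2 to 73.4) in replicate 1 and 71.7% against 68.6% in replicate 2. From 3 to 5 they were 60.6% (56.2 to 64.8) against 56.4% (50.0 to 62.5) in replicate 1 and 64.1% (48.4 to 77.3) against 55.2% (50.8 to 59.5) in replicate 2. The median gap under 3 was 1078 bp against 3031.5 bp in replicate 1, where reproduced peaks numbered 58, and 779 bp against 1186 bp in replicate 2. With −log10 q of 5 or more the order in replicate 1 turned round, to 47.1% of single-replicate and 49.4% of reproduced peaks within 5 kb. Replicate 2 kept it at 5 kb with 58.3% of 12 against 51.6%. Within 1 kb the order turned round in both lists, to 18.2% against 19.0% in replicate 1 and 8.33% of 12 against 20.8% in replicate 2. At an equal length of 3501 peaks, the difference in the share within 5 kb was 0.281 percentage points in replicate 1 and 6.80 in replicate 2. On single arms the single-replicate share within 1 kb was the higher on all 4 in replicate 1. In replicate 2 it was the higher on 2R, 3L and 3R, while 2L had 23.5% of 17 peaks against 24.3%.

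The reproduced peaks within 1 kb of them were wider and held more reads than the median reproduced peak. In replicate 1, the 353 single-replicate peaks within 1 kb had 328 different reproduced peaks as their nearest, with a median width of 663 bp, 6.91-fold enrichment and 160 reads, against 480 bp, 5.47-fold and 121 reads for all 3259 reproduced peaks. Where the gap was 1 to 5 kb the neighbours had 519 bp and 129.5 reads, and beyond 5 kb 485 bp and 123.5 reads. In replicate 2 the 46 neighbours within 1 kb had a median of 385.5 bp and 124.5 reads, against 355 bp and 101 reads for all 3385. At 1 to 5 kb they had 342 bp and 90 reads and beyond 5 kb 330.5 bp and 104.5 reads. The single-replicate peaks near them were not stronger than the rest, with a median −log10 q of 3.16 within 1 kb, 3.98 between 1 and 5 kb and 4.34 beyond in replicate 1. They lay on the left of the reproduced peak 193 times and on the right 160 times in replicate 1, and 23 and 24 times in replicate 2.

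Some of the peaks were near misses of the overlap rule. In replicate 1, 110 of 1097 (10.0%, 8.39 to 11.9) lay within 200 bp of a replicate 2 peak, and in replicate 2, 28 of 111 (25.2%, 18.1 to 34.0) lay within 200 bp of a replicate 1 peak. Counting these as found again leaves 987 and 83 peaks, and the shares within 1 kb of a reproduced peak become 24.9% against 25.7% in replicate 1 and 24.1% against 25.6% in replicate 2. The smallest gaps were 8 bp on 3L at 9981672 to 9981948, 9 bp on 3R at 14268598 to 14268781 and 13 bp on 2R at 14715407 to 14715774 for replicate 1. For replicate 2 they were 0 bp, an end-to-end contact, on 3L at 15534359 to 15534551, 6 bp on 2L at 3239702 to 3239899 and 7 bp on 3L at 18689219 to 18689368. Fold enrichment at these 6 ran from 2.88 to 3.44. Just on the other side of the rule, the smallest overlaps were 4, 15 and 18 bp in replicate 1 (3L, 10598543 to 10598756, 3L, 14378815 to 14378981, and 2R, 11690565 to 11690777). In replicate 2 they were 4, 13 and 17 bp (3L, 10598753 to 10598931, 3R, 9386335 to 9386580, and 2R, 16908423 to 16908574). Fold enrichment there ran from 2.51 to 3.40, so peaks just inside and just outside the rule had like values.

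In 4 places a single-replicate peak of each list lay within 200 bp of the other. On 2R, 14715407 to 14715774 of replicate 1 (3.31-fold, 63 reads) and 14715788 to 14716010 of replicate 2 (3.77-fold, 73 reads) were 13 bp apart, with summits 444 bp apart. On 3L the gaps were 36 bp between 5908816 to 5909037 of replicate 2 and 5909074 to 5909230 of replicate 1, 59 bp near 10735714 and 106 bp near 17567262. Of the other near misses within 200 bp, 106 in replicate 1 and 24 in replicate 2 had a reproduced peak as the nearest peak of the other list.

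Few single-replicate peaks lay far from the reproduced peaks of their own list. Farther than 20 kb from a reproduced peak lay 131 of 1097 (11.9%, 10.2 to 14.0) against 15.8% of reproduced peaks in replicate 1, and 9 of 111 (8.11%, 4.32 to 14.7) against 15.0% in replicate 2. The most remote was on 3L at 23593870 to 23594075, 665 kb from a reproduced peak, with 3.06-fold enrichment and 50 reads. The next were 194 kb away on 2L at 19722667 to 19722841 (2.89-fold, 74 reads) and 167 kb away on 3L at 22648725 to 22648916 (3.09-fold, 50 reads). In replicate 2 the most remote were 128 kb away on 3R at 13868202 to 13868373 (2.93-fold), 44.9 kb away on 3L at 6477142 to 6477298 (2.73-fold) and 43.3 kb away on 2R at 18561945 to 18562218 (3.68-fold). Replicate 1 peaks of any class could lie nearer. The nearest was 37924 bp from the 3R peak, 1766 bp from the 3L peak and 43131 bp from the 2R peak. The 2R peak is also among the 5 strongest of replicate 2. The other remote peaks had −log10 q of 2.78, 3.65 and 2.83 in replicate 1 and of 2.68 and 2.60 in replicate 2. These lay below the single-replicate medians of 3.78 and 2.94.

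Single-replicate peaks were spaced more widely along the arms than reproduced peaks, which are more numerous. The median spacing between neighbours on an arm was 44.1 kb (40.2 to 50.8) in replicate 1, against 12.2 kb (11.4 to 13.0) between reproduced peaks. Replicate 2 gave 591 kb (412 to 675) against 11.4 kb (10.7 to 12.3). Within 5 kb of another single-replicate peak of their list lay 304 of 1097 (27.7%, 25.1 to 30.4) in replicate 1. Reproduced peaks had one within 5 kb in 27.3% (25.8 to 28.9), and these intervals overlap. In replicate 2, 2 of 111 had another within 5 kb. Joined where the next was within 5 kb, 793 of the 1097 stood alone, 206 formed pairs, and 98 lay in 28 runs of 3 to 5. The tightest run of 5 spanned 4320 bp on 2L, from 16669874 to 16674193, with 1 reproduced peak inside it. Its peaks had 3.18-, 3.11-, 2.35-, 3.25- and 2.24-fold enrichment from left to right and 91, 88, 66, 95 and 82 reads. Read counts of 4 of these 5 exceeded the upper quartile of 77 for replicate 1. The only pair of replicate 2 was on 2R, 16602074 to 16603907, with 45 and 51 reads and a reproduced peak between.

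In replicate 1, the filter on Saft overlaps removed a larger share of the peaks seen once than of the reproduced peaks. The Saft lists did not enter the replicate comparison. They are part of the rule for single-replicate peaks, however, and share the cell line and antibody of the Phaser lists. Before that filter, 279 of 1376 replicate 1 peaks seen once (20.3%, 18.2 to 22.5) overlapped a Saft peak, against 208 of 3259 reproduced peaks (6.38%, 5.59 to 7.27), where all autosomal peaks gave 10.5%. In replicate 2 it was 5 of 116 (4.31%, 1.85 to 9.69) against 207 of 3385 (6.12%, 5.36 to 6.97), where all peaks gave 6.06%. On each arm the replicate 1 share was 19.3% to 21.1% for peaks seen once and 5.43% to 8.18% for reproduced ones. The difference was present at −log10 q of 3 to 5 (21.8%, 18.7 to 25.2, against 8.53%, 5.70 to 12.6) and of 5 to 10 (21.2%, 17.3 to 25.8, against 9.09%, 7.28 to 11.3). Under 3 the order was the other way, with 17.2% (13.7 to 21.3) against 23.7% (15.5 to 34.4) of 76 reproduced peaks, and these intervals overlap. Of the 279, 84 overlapped a peak in all 4 Saft lists and 66 in 1 list. Requiring 2 or more Saft lists left 15.5%, and leaving out any Saft list changed the 20.3% by less than its interval. The Saft peaks over them were weak to middling, with median −log10 q of 4.86 to 5.76 in the 4 lists, against 8.16 to 9.00 for Saft peaks over reproduced Phaser peaks. With 1 Phaser clone and 2 libraries, the difference between the replicates in this overlap could not be tested.

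**Figure D5:**
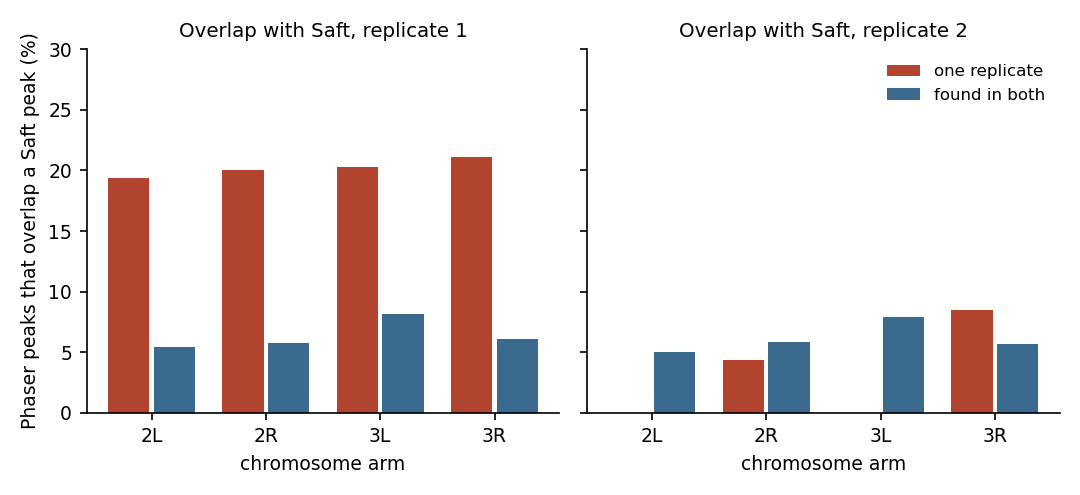
Share of autosomal Phaser peaks that overlap a Saft peak (y axis, %) by chromosome arm, before the Saft filter, for peaks seen in 1 replicate (red) and reproduced peaks (blue). In replicate 1 the red bars stand at 19.3% to 21.1% on all arms, and in replicate 2 they rest on 5 peaks of 116.

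Away from direct overlap, both classes had like median distances from Saft, while the shares close to Saft were somewhat higher for single-replicate peaks. The median gap from single-replicate peaks to the nearest Saft peak was 31.3 kb against 32.6 kb for reproduced peaks in replicate 1, and 32.9 kb against 32.1 kb in replicate 2. Within 5 kb of a Saft peak lay 13.1% (11.3 to 15.3) against 10.9% (9.86 to 12.1) in replicate 1 and 15.3% (9.79 to 23.2) against 11.1% (10.1 to 12.2) in replicate 2, with overlapping intervals in both lists.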

How the data were processed

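Anti-FLAG ChIP was done on cells fixed in 1% formaldehyde for 10 min and sheared to 200 to 1000 bp, per the labels' protocols. Trim Galore 0.6.2, Bowtie 1.2.2, bedtools 2.27.1, MACS2 2.1.2.1 and build dm3 are named, per the submitters' processing notes, without order or settings. The authors deposited 1 narrowPeak list for each ChIP library, not pooled. Fold enrichment is deposited as a linear ratio at the summit. The authors' peak caller also wrote −log10 p and −log10 q, and the deposited score was not used.

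Peaks were classed by overlap of 1 bp or more. Gaps run from edge to edge. Shares carry Wilson intervals, and medians carry intervals from binomial ranks. ChIP reads and background were solved from fold (with 1 added to both terms) and the Poisson p. With a tolerance of 0.03 reads, 100% of Phaser peaks came out whole, against 7.81% and 7.80% with a wrong factor. The factors were 0.289 and 0.325 in replicates 1 and 2. Counts describe summits, and library depth is unknown. The replicates are described as biological in the labels. Class, gap and read recovery were tested on simulated data. Named regions are, for each list, the 8 or 5 strongest by −log10 q, and the 3 widest, most remote, nearest to the other list and of smallest overlap, plus the tightest run. Members, lists and alternatives were chosen with earlier results of these data known. Coordinates are dm3, 1-based. The gene table at hand is of another build, so genes and sequences were not used here. Alternatives were other overlap rules, stricter −log10 q, equal list lengths, other distances, no Saft filter, each Saft list left out and the X added. Software was Python 3.11.15, pandas 2.3.3, numpy 2.4.6, scipy 1.17.1 and matplotlib 3.10.9.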

Additional observations from a re-analysis of the deposited data

Results flagged for a closer look

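Single-replicate Phaser peaks without Saft also occurred on the X, which the description of the autosomal arms leaves out. They are listed because each count is above the 3 that a count of 0 allows, a low bar, and no untagged control list was used here. Replicate 1 had 163 among 660 X peaks (24.7%, Wilson interval 21.6 to 28.1) and replicate 2 had 13 among 486 (2.67%, 1.57 to 4.52), close to the autosomal 23.7% and 3.17%. Their median width was 205 and 177 bp and their median count 52 and 48 reads. The background was at the floor of the list under 72.4% and 92.3% of them, against 2.83% and 6.31% of the autosomal ones. Neither the floor share nor the read count is given for reproduced X peaks. These values therefore cannot be called particular to the single-replicate peaks of the X.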

How the results depend on the processing

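Of 147 recomputed values, 91 stayed within 1.5 times (counts) or within the counting interval, 55 moved and 1 reversed. For nearness to reproduced peaks these count the 5 kb share, with 1 kb only as an alternative distance. Within 1 kb the order of the classes turned round more often. It did so in both lists with gaps up to 200 bp allowed and with single-replicate peaks at −log10 q of 5 or more. With both lists at 5 or more it did so in replicate 2 (9.86% against 12.7%). It held in the rest. At −log10 q of 5 or more, the excess of replicate 1 peaks within 5 kb of a reproduced peak became -2.23 percentage points, from 9.65. Numbers for replicates 1 and 2 became 297 and 12 there, 686 and 71 with both lists at 5 or more, and 381 and 314 at equal length. In replicate 2 they became 511 with 50% reciprocal overlap and 332 with summits within 100 bp. Median widths became 233 and 228 bp (reciprocal overlap), 221 and 222 bp (summits), 257 and 221 bp (5 or more), 291 and 235 bp (both lists) and 249 and 197 bp (equal length). The share within 5 kb of a reproduced peak became 55.3% and 56.6% (gaps up to 200 bp allowed), 47.1% and 58.3% (5 or more), 42.6% and 46.5% (both lists), and 47.2% and 58.0% (equal length). It became 81.6% in replicate 2 by summits and 53.9% in replicate 1 without the Saft filter. At 1 kb it was 32.2% and 42.3%, and at 20 kb 88.1% and 91.9%. The share of replicate 1 peaks within 5 kb of another such peak became 34.1% (reciprocal overlap), 31.7% (summits), 22.9% (gaps), 10.1% (5 or more), 12.5% (both lists), 9.97% (equal length), 9.66% (1 kb) and 53.2% (20 kb). The Saft overlap of replicate 1 peaks seen once, added after the data were seen as were its alternatives and the differences, became 16.0% (both lists), 22.9% (equal length) and 15.5% (2 or more Saft lists). Single-replicate peaks were narrower than reproduced ones, by the median, under every alternative that was run. Median width rose with −log10 q in both classes, so these alternatives do not separate width from strength. Leaving out Saft lists in turn gave 1110 to 1118 and 111 to 112 peaks. The cause of these changes was not tested. Leaving out a Phaser replicate gives no value, since both define the classes. No paired analysis was possible because no result comes from a test.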

Other observations

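A few single-replicate peaks held many reads over a high background, and were looked up after their values were seen. The 3 with most reads in replicate 1 lay on 3L at 3432192 to 3432527 (272 reads over 47.4, 1.64-fold), 3432983 to 3433401 (268 reads over 50, 1.54-fold) and 3424717 to 3424907 (201 reads over 29, 1.97-fold). A background of 20 or more lay under 6 of 1097 single-replicate peaks, 5 of them on 3L, and under 8 of 3051 reproduced peaks, in replicate 1. In replicate 2 it lay under none of 111 and under 11 of 3178. On heterochromatic scaffolds, 3 of the 4 replicate 1 peaks overlapped no replicate 2 peak, and all 3 overlapped a Saft peak.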
